A study of Mus musculus with 6 samples.

Results

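The miR-17-92 and miR-106b-25 clusters are a pair of related miRNA loci, and their 9 main mature products were followed here in exosomes of mouse skin cells. The 9 products were chosen by name (mmu-miR-17-5p, mmu-miR-18a-5p, mmu-miR-19a-3p, mmu-miR-20a-5p, mmu-miR-19b-3p and mmu-miR-92a-3p of the first locus, and mmu-miR-106b-5p, mmu-miR-93-5p and mmu-miR-25-3p of the second; the species prefix mmu is left out below). All 9 were listed among the 1964 mature miRNAs and 16310 RNAs in the tables. The series holds 6 small RNA libraries, 3 from exosomes of epidermal stem cells (ESC) and 3 from exosomes of dermal fibroblasts (Fb), both grown from dorsal skin and used at passage 0-1. C57BL/6 mice of 3 weeks, with hair follicles at rest (telogen), gave the ESC, which were the rapidly adhering cells of the epidermis and grew in keratinocyte medium without serum. Fb were taken from db/db mice of 14 weeks, which lack a working leptin receptor and become obese and diabetic. They grew in medium with fetal bovine serum and spent 2 days in serum-free medium before collection. The strain label of every library reads C57BL/6, against the protocol for the Fb. Cell type, donor strain, donor age and medium changed together between the groups, so their parts in a difference cannot be told apart. The protocol calls the 3 libraries of a group biological replicates, but which animals or cultures went into which library is not labelled, and every p-value rests on the spread among these libraries.

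Both clusters are transcribed as one long RNA each, from which several hairpins are cut, and each hairpin yields a short mature miRNA that guides silencing of matching mRNAs. The miR-17-92 cluster is driven by Myc and E2f factors and is known as an oncogenic and proliferation-linked locus, and miR-106b-25 lies inside Mcm7, a gene of the DNA replication machinery. A miRNA finds its targets mainly through its seed, bases 2 to 8 from its 5′ end, and products with one seed share most of their predicted targets. The miR-17 seed family is known to repress Cdkn1a and E2f1, miR-92a to repress Itga5, and miR-25 and miR-92a to repress Bcl2l11.

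The sequences below are shown because the seeds sort the 9 products into 4 families, and because near-identical products can share reads. They are mature miRNAs from RefSeq (GRCm38.p6), written 5′ to 3′ with the seed in capitals. The miR-17 seed was shared by 4 members from both clusters:
miR-17-5p: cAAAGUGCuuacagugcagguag
miR-20a-5p: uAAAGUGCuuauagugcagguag
miR-106b-5p: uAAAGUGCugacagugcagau
miR-93-5p: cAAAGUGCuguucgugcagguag
The miR-18 seed was that of 1 member:
miR-18a-5p: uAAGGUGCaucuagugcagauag
The miR-19 seed was that of 2 members:
miR-19a-3p: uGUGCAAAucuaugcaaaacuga
miR-19b-3p: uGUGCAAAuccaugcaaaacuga
The miR-92 seed was shared by 1 member of each cluster:
miR-92a-3p: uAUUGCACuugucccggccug
miR-25-3p: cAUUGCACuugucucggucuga
A relative outside the 9 products is nearly the same as miR-17-5p:
miR-106a-5p: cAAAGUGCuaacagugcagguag

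Counted from 1 at the 5′ end, miR-17-5p and miR-106a-5p differed only by U10A, miR-19a-3p and miR-19b-3p only by U11C, and miR-17-5p and miR-20a-5p by C1U and C12U. The deposited reads of such pairs are estimated counts. The sources used here do not say how reads that match several members were divided. The split within these pairs is therefore uncertain, and sums over a seed family are less exposed to it. All 9 members are 21 to 23 bases long, so their reads were compared without further scaling for length.

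The hairpins of miR-17-92 lie on chromosome 14, from 115043671 (start of the Mir17 hairpin) to 115044506 (end of Mir92-1) on the plus strand of GRCm38. They overlap the annotated exon of the long non-coding RNA Mir17hg (115042879 to 115046727). The hairpins of miR-106b-25 lie on the minus strand of chromosome 5, from 138165321 (Mir25) to 138165818 (Mir106b), within the span of Mcm7 (138164583 to 138172422). Mir106b overlapped no annotated exon there, and Mir93 and Mir25 overlapped exons of retained-intron transcripts alone. Identical copies of mature miR-19b-3p (52741991 to 52742013) and miR-92a-3p (52741854 to 52741874) are encoded on the minus strand of chromosome X, in the related miR-106a-363 cluster. Reads of miR-19b-3p and miR-92a-3p therefore cannot be assigned to one locus by sequence. The products that only the X-linked cluster makes were nearly absent. Of the 8 mature products of its other hairpins, 5 had 0 reads in every library and none exceeded 2.67 reads in one library. The opposite arms of its miR-19b and miR-92a hairpins, miR-19b-2-5p and miR-92a-2-5p, also had 0 reads in every library. The matching chromosome 14 arms were scarce too. miR-19b-1-5p had at most 7 reads (ESC replicate 3) and miR-92a-1-5p at most 4 (Fb replicate 2), so these arms cannot tell the loci apart.

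Mature miRNAs took 1392859 to 1522604 reads of each ESC library (13.3% to 14.7% of assigned reads), and of each Fb library 49019 to 177990 reads (0.613% to 2.05%). Values below are CPM, reads per 1000000 mature miRNA reads of the library, unless stated otherwise. A floor of 3 reads was worth 1.97 to 2.15 CPM in an ESC library and 16.9 to 61.2 CPM in an Fb library. Fb replicate 1 had the fewest miRNA reads and the lowest correlations with the other Fb libraries (Pearson r of log2 CPM across 296 miRNAs 0.776 and 0.823, against 0.925 between Fb replicates 2 and 3). The labels matched the marker miRNAs. The 7 epithelial markers (miR-200 family, miR-203, miR-205; 5.99% to 7.46% of miRNA reads in ESC, 0.746% to 1.42% in Fb libraries) all passed edgeR's quasi-likelihood test as higher in ESC. The 8 mesenchymal markers (miR-143, miR-145a, miR-199, miR-214; 0.0175% to 0.0209% in ESC, 19.5% to 30.4% in Fb libraries) all passed as higher in Fb.

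The miR-17-92 products made up 4.03% ± 0.177 of ESC and 3.42% ± 1.78 of Fb miRNA reads (SD, n = 3, exact permutation p = 0.7), a difference smaller than the SD of the Fb libraries. The miR-106b-25 products made up 0.980% ± 0.0928 of ESC and 1.24% ± 0.256 of Fb miRNA reads (SD, n = 3, exact permutation p = 0.3), a difference of about the SD of the Fb libraries. The 9 members together made up 5.01% ± 0.263 (SD, n = 3) of ESC and 4.66% ± 1.59 (SD, n = 3) of Fb miRNA reads. Per library they held 5.29%, 4.97% and 4.77% in ESC replicates 1 to 3 and 6.39%, 3.25% and 4.35% in Fb replicates 1 to 3, so the Fb values lay on both sides of the ESC values. Of the 9 members, 0 were called by edgeR's quasi-likelihood test at a Benjamini-Hochberg adjusted p of 0.05, and 0 had an unadjusted p under 0.05 (55.4% of all miRNAs tested). DESeq2 (40.5% of all called) and limma-trend (46.5%) also called 0 of the 9, and limma-trend gave 1 member an unadjusted p under 0.05. Of all 325 miRNAs tested with edgeR, 161 were called (49.5%), of which 71 were higher in ESC (21.8%) while Fb exosomes had 90 (27.7%). The median log2 fold change (ESC over Fb) was 0.39 over the 9 members and -0.11 over all miRNAs tested. A missed threshold does not show equality, and the 95% intervals below give the differences these libraries allow.

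**Figure D1:**
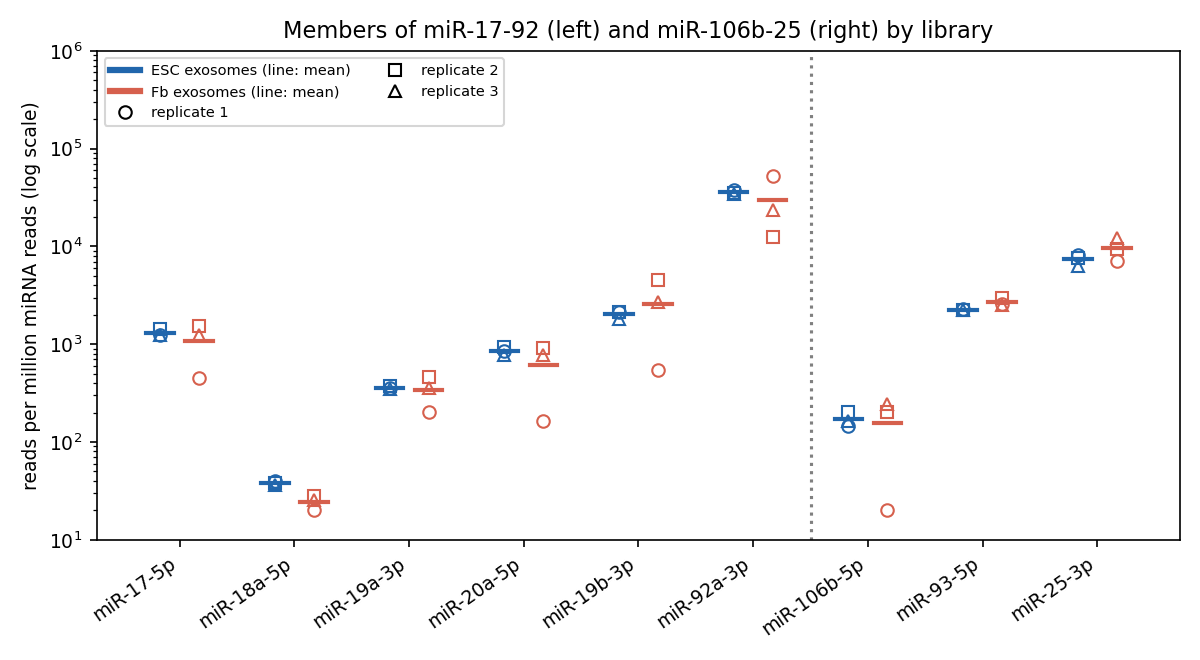
CPM of mature miRNA reads (log axis) for the 9 members in each of the 6 libraries; symbols mark replicates and short lines group means of 3 libraries. ESC libraries lie close together, while Fb replicate 1 (red circles) lies below the other Fb libraries for most members and above them for miR-92a-3p, at 52761 CPM.

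miR-92a-3p, a repressor of the integrin subunit gene Itga5 in blood vessels, was the most abundant member in every library. Its levels were 37701, 34804 and 34689 CPM in ESC replicates 1 to 3. In Fb replicates 1 to 3 they were 52761 (exact Clopper-Pearson 95% interval 50793 to 54771), 12513.5 (12001 to 13039) and 23462.5 CPM (22608 to 24338). The Fb values enclosed the ESC values, and their differences exceeded counting error. As a rank among mature miRNAs, miR-92a-3p stood 7th in all 3 ESC libraries and 4th, 18th and 10th in Fb replicates 1 to 3. Its log2 fold change was 0.76 (SE 0.43, 95% interval -0.24 to 1.77, edgeR adjusted p = 0.171). Without Fb replicate 1 edgeR called 213 of 380 miRNAs. miR-92a-3p was among them, higher in ESC exosomes by 1.39 on the log2 scale (SE 0.25, edgeR adjusted p = 0.00255). It also passed with no count filter (1.25, edgeR adjusted p = 0.00947), in a fit that called 209 of 968 miRNAs. The median log2 fold change of all miRNAs in that fit was 1.31, above that of miR-92a-3p. Over all alternatives the adjusted p of miR-92a-3p ranged from 0.00255 to 0.673.

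Markers of other cell types were unevenly spread over the Fb libraries. The 7 epithelial miRNAs summed to 0.746%, 1.42% and 1.00% of miRNA reads in Fb replicates 1 to 3. Of them, miR-200a-3p, miR-200c-3p and miR-141-3p were highest in Fb replicate 1. Highest in Fb replicate 2 were miR-205-5p (4283, 9551 and 6392 CPM in Fb replicates 1 to 3), miR-203-3p, miR-429-3p and miR-200b-3p. Of the 3 muscle miRNAs, miR-1a-3p was at 1081 CPM in Fb replicate 1 and at 0 to 14.1 CPM in the other libraries, and miR-133a-3p was at 286, 28.1 and 67.4 CPM in Fb replicates 1 to 3. miR-206-3p was instead lowest in Fb replicate 1, at 347 CPM against 432 and 488 CPM in Fb replicates 2 and 3. The 10 blood and serum miRNAs (such as miR-451a, miR-486a-5p and miR-142a-5p) summed to 0.441%, 0.119% and 2.23% of miRNA reads in Fb replicates 1 to 3 and to 0.0204% to 0.0311% in ESC libraries. miR-486a-5p and miR-486b-5p held most of these reads. The red-cell miRNA miR-451a was at 40.8, 5.62 and 58.9 CPM in Fb replicates 1 to 3, from 2, 1 and 7 reads. Of these 10 miRNAs 3 to 5 were at 0 in each library, with miR-142a-3p at 0 in every one. Lower in Fb were miR-122-5p (6.09 to 7.90 CPM in ESC, 0 to 5.83 CPM in Fb libraries) and miR-150-5p (up to 2.03 and 0 CPM). All these values lie under the Fb floor of 3 reads. Of the 10, 3 were tested, and edgeR called 1 as higher in Fb and 0 as higher in ESC exosomes (49.5% of all called). miR-92a and miR-25 are known to be abundant in red blood cells. Fb replicate 3, with the highest sum, also had the highest miR-25-3p level of the Fb libraries (12118 CPM), while miR-92a-3p was highest in Fb replicate 1. The part of other cells or of serum in the levels was not tested.

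miR-25-3p, a repressor of the pro-apoptotic gene Bcl2l11 and the main product of miR-106b-25, had 8194, 7553 and 6370 CPM in the ESC libraries, against 7160, 9416 and 12118 CPM in Fb replicates 1 to 3. The groups overlapped, with the 2 highest values in Fb exosomes. The log2 fold change was 0.00 when rounded (SE 0.34, 95% interval -0.80 to 0.79, edgeR adjusted p = 0.992). Its sign turned between scalings, at -0.38 with library totals alone and 0.17 with upper-quartile factors.

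miR-93-5p, of the miR-17 seed family, had the tightest values of the 9 members. It had 2285, 2234 and 2261 CPM in the ESC libraries, against 2591, 2938 and 2518 CPM in Fb replicates 1 to 3. Every Fb value was above every ESC value on this scale. With TMM factors the log2 fold change was 0.14 (SE 0.28, 95% interval -0.53 to 0.81, edgeR adjusted p = 0.691), and with library totals alone it was -0.25, so the direction depends on the scaling. miR-106b-5p, cut from the same precursor, had 146, 204 and 165 CPM in the ESC libraries, against 20.4, 202 and 244 CPM in Fb replicates 1 to 3. The log2 fold change was 0.36 (SE 0.62, edgeR adjusted p = 0.649). The low value of Fb replicate 1 was 1 read, with an exact Clopper-Pearson 95% interval of 0.516 to 114 CPM.

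Among the other miR-17-92 products, miR-17-5p had 1230, 1426 and 1229 CPM in the ESC libraries, against 449, 1534 and 1243 CPM in Fb replicates 1 to 3. miR-20a-5p had 850, 942 and 777 CPM in the ESC libraries, against 163, 916 and 778 CPM in Fb replicates 1 to 3. In both, Fb replicates 2 and 3 were close to the ESC libraries and Fb replicate 1 was lower. The log2 fold changes were 0.58 (SE 0.51) for miR-17-5p and 0.76 (SE 0.61) for miR-20a-5p, with edgeR adjusted p = 0.376 and 0.334.

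The miR-19 pair differed in the same library. miR-19b-3p had 2114, 2137 and 1808 CPM in the ESC libraries, against 551, 4498 and 2726 CPM in Fb replicates 1 to 3. The log2 fold change was -0.06 (SE 0.71, 95% interval -1.72 to 1.60, edgeR adjusted p = 0.951). miR-19a-3p had 353, 372 and 351 CPM in the ESC libraries, against 204, 461 and 354 CPM in Fb replicates 1 to 3. The log2 fold change was 0.39 (SE 0.39, edgeR adjusted p = 0.425). For both, Fb replicate 1 was the lowest library and Fb replicate 2 the highest.

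miR-18a-5p was the least abundant member in ESC exosomes and, level with miR-106b-5p in Fb replicate 1, in every Fb library. It had 39.5, 38.5 and 36.1 CPM in the ESC libraries, against 20.4, 28.1 and 25.3 CPM in Fb replicates 1 to 3, from 1, 5 and 3 reads in Fb replicates 1 to 3. Every ESC value was above every Fb value, but the exact Clopper-Pearson 95% interval of each Fb library (such as 9.12 to 65.6 CPM in replicate 2) held the ESC values. The log2 fold change of 0.92 (SE 0.42, 95% interval -0.08 to 1.91) missed the threshold, at an edgeR adjusted p = 0.109. Thus 2 of the 9 members, miR-18a-5p and miR-93-5p, did not overlap between the groups, where 60.9% of the 325 miRNAs tested did not, and 7 overlapped.

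**Figure D2:**
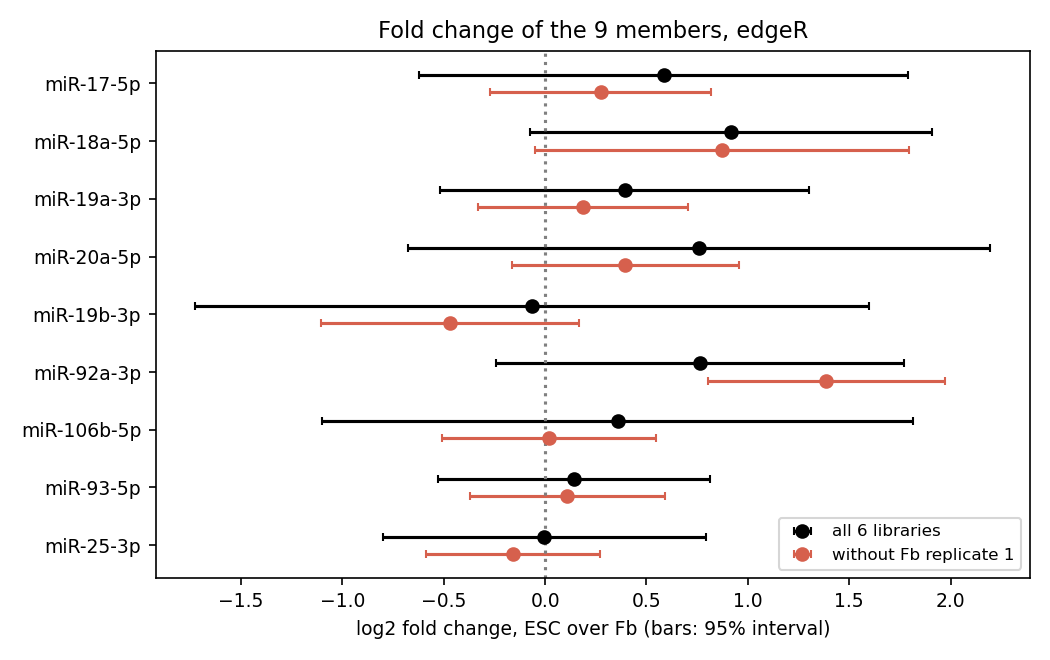
log2 fold change of each member, ESC over Fb, with 95% intervals from edgeR's quasi-likelihood fit, with all 6 libraries (black) and without Fb replicate 1 (red). All intervals of the full fit include 0; without Fb replicate 1 that of miR-92a-3p runs from 0.80 to 1.97.

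Relative to all assigned reads the picture was another one, since miRNAs were a smaller part of the Fb libraries. All 9 members were higher in every ESC library than in every Fb library, as were 74.8% of all miRNAs tested. In reads per 1000000 assigned reads, miR-92a-3p averaged 5005 ± 353 (SD, n = 3) over ESC and 328 ± 73.4 (SD, n = 3) over Fb libraries, a ratio of 15.3, the highest of the 9. miR-19b-3p had the lowest ratio, 5.95, with 282 ± 16.1 against 47.4 ± 44.4 (SD, n = 3). The 2 cluster sums had ratios of 13.7 for miR-17-92 and 7.18 for miR-106b-25 (exact permutation p = 0.1 each, the smallest that 3 against 3 libraries allows). When all RNAs were fitted together, edgeR called 0 of the 9 members, against 11.8% of the 2999 RNAs tested, and the log2 fold change of miR-92a-3p was 2.12 (SE 1.23, edgeR adjusted p = 0.367). A share of assigned reads cannot tell less miRNA from more of other RNAs, and it does not give the number of vesicles.

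A single product held most reads of each cluster. Of the reads of miR-17-92, miR-92a-3p held 89.2%, 87.6% and 89.2% in ESC and 97.4%, 62.7% and 82.1% in Fb replicates 1 to 3. The exact Clopper-Pearson 95% intervals of the Fb shares were 96.8 to 98.0, 61.1 to 64.3 and 80.7 to 83.3, so the Fb libraries differed from one another beyond counting error. In Fb replicate 2 miR-19b-3p held 22.5% of the reads of the cluster, against 4.65% to 5.38% in ESC libraries and 1.02% in Fb replicate 1. The share of miR-25-3p in miR-106b-25 varied less, at 77.1%, 75.6% and 72.4% in ESC and 73.3%, 75.0% and 81.4% in Fb exosomes. miR-93-5p held 21.5% to 25.7% of its cluster in ESC libraries, against 16.9% to 26.5% in Fb libraries.

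**Figure D3:**
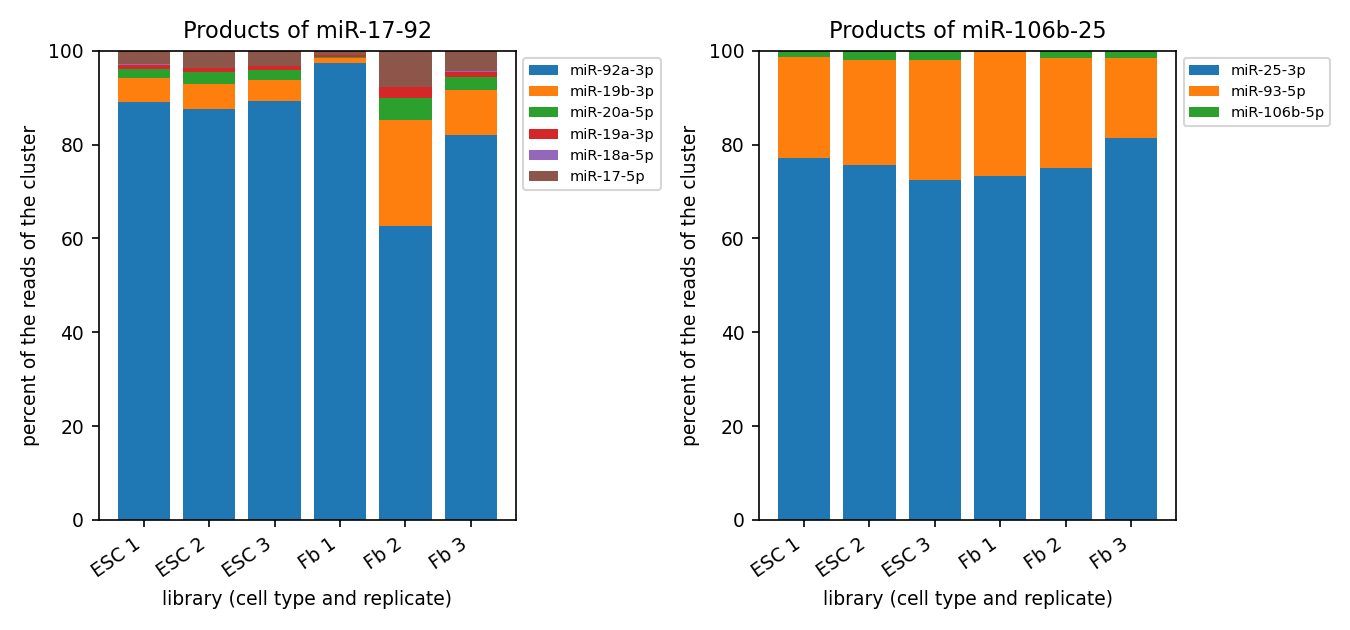
Percent of the reads of each cluster held by each product, per library. miR-92a-3p fills 87.6% to 89.2% of miR-17-92 in ESC but 62.7% to 97.4% in Fb libraries, while miR-25-3p keeps 72.4% to 81.4% of miR-106b-25 in all 6.

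Ratios within a library need no scaling between libraries. miR-92a-3p had 8.22, 7.08 and 8.26 times the reads of the other 5 miR-17-92 products together in ESC replicates 1 to 3, and 38.0, 1.68 and 4.58 times in Fb replicates 1 to 3. On the log2 scale the ratio was 2.97 ± 0.13 in ESC and 2.73 ± 2.30 in Fb exosomes (SD, n = 3, exact two-sided permutation p = 0.9). miR-25-3p had 3.37, 3.10 and 2.62 times the summed reads of miR-106b-5p and miR-93-5p in ESC and 2.74, 3.00 and 4.39 times in Fb exosomes (log2 1.59 ± 0.18 against 1.72 ± 0.36, SD, n = 3, exact permutation p = 0.7). The SD over the Fb libraries was wider for the miR-92a than for the miR-25 ratio. That difference in spread was not tested.

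The 2 clusters stood in an ESC ratio (miR-106b-25 over miR-17-92) of 0.251, 0.252 and 0.226. In Fb exosomes it was 0.180, 0.629 and 0.521 (exact permutation p = 0.4). Fb replicates 2 and 3 lay above all ESC libraries and Fb replicate 1 below them. Over the 15 ratios computed, which share products, every exact permutation test had a Benjamini-Hochberg adjusted p of 1. The groups overlapped in 14 and were separate in 1, that of miR-20a-5p to miR-17-5p, named here after its values were seen. It was 0.691, 0.661 and 0.632 in ESC and 0.364, 0.597 and 0.626 in Fb exosomes (exact permutation p = 0.1). The highest Fb and the lowest ESC value nearly met, and the Fb replicate 1 ratio rested on 8 and 22 reads. How reads were split between these near-identical products is not known. In Fb replicate 3 their estimated counts were fractional, at 92.384 and 147.616 reads.

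By seed, the miR-92 family (miR-92a-3p and miR-25-3p) made up most of the member reads, at 86.7%, 85.2% and 86.1% in ESC and 93.7%, 67.5% and 81.9% in Fb replicates 1 to 3. The miR-17 family held 8.52% to 9.67% in ESC and 5.04%, 17.2% and 11.004% in Fb exosomes, and the miR-19 family 4.53% to 5.05% and 1.18%, 15.3% and 7.08%. miR-18a-5p, alone in its family, held under 0.0864% of member reads in the other 5 libraries and that share in Fb replicate 2.

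As shares of all miRNA reads, the miR-17 seed family was at 0.458% ± 0.0197 in ESC and 0.453% ± 0.120 in Fb exosomes (SD, n = 3, exact permutation p = 0.9). The miR-92 family was at 4.31% ± 0.250 and 3.91% ± 1.92 (SD, n = 3, exact permutation p = 0.7), and the miR-19 family at 0.238% ± 0.0191 and 0.293% ± 0.211 (SD, n = 3, exact permutation p = 0.7). The miR-18 family was at 0.00380% ± 0.000175 and 0.00246% ± 0.000389 (SD, n = 3, exact permutation p = 0.1, adjusted 0.6 over the 6 sums compared). With members summed by seed and fitted among all miRNAs, edgeR called 0 of the 4 families (0 at an unadjusted p under 0.05), against 50.9% of 320 rows tested. The log2 fold changes were 0.37 (SE 0.36) for the miR-17, 0.91 (SE 0.42) for the miR-18, -0.01 (SE 0.67) for the miR-19 and 0.61 (SE 0.31) for the miR-92 family. DESeq2 gave the miR-92 family an adjusted p = 0.0501. Without Fb replicate 1 that family passed, by 0.86 on the log2 scale (SE 0.19, edgeR adjusted p = 0.00873). The edgeR fit of single miRNAs without that library called 213 of 380.

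Fb replicate 1 was set against the mean of the other Fb libraries for each member. It held 2.93 times their level of miR-92a-3p and 0.9496 times that of miR-93-5p. It held 0.0914 times their miR-106b-5p, 0.152 times their miR-19b-3p, 0.193 times their miR-20a-5p and 0.323 times their miR-17-5p. It held 0.765 times their miR-18a-5p, 0.665 times their miR-25-3p and 0.501 times their miR-19a-3p. The first pair are the members richest in G and C bases, at 57.1% and 52.2%, and the 4 lowest ones have 39.1% to 47.8%. The order was not strict, since miR-19a-3p has the fewest G and C bases of the 9 (34.8%). In Fb replicate 1 the levels of miR-106b-5p and miR-18a-5p rest on 1 read each. Those of miR-20a-5p and miR-19a-3p rest on 8 and 10 reads, so these folds are imprecise. Across the 9 members, which are not independent of one another, Pearson's r between G and C content and the log2 deviation of Fb replicate 1 was 0.688 (Spearman's rho 0.711). For Fb replicate 2 it was -0.796 (rho -0.795) and for Fb replicate 3 -0.401 (rho -0.385), and these deviations are not independent, since each library is set against the others of its group. Over the 179 miRNAs that averaged 10 or more reads and had no 0 in Fb libraries, r was 0.353 in Fb replicate 1, -0.239 in Fb replicate 2 and -0.201 in Fb replicate 3. In ESC libraries it was -0.481 to 0.309 over the 9 members and -0.0475 to 0.0233 over 284 miRNAs. The comparison was made after the values were seen. These are descriptions of single libraries, and the cause was not tested.

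**Figure D4:**
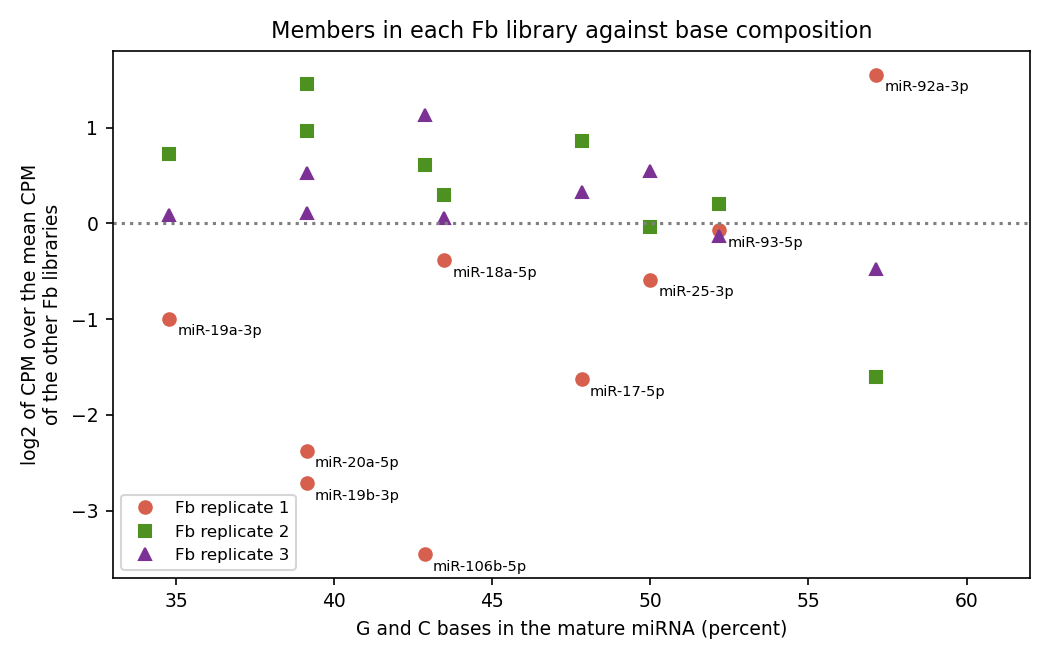
log2 of each member's CPM in one Fb library over the mean of the other Fb libraries, against the G and C content of the mature miRNA in percent. In Fb replicate 1 miR-92a-3p lies above 0, and miR-106b-5p (1 read), miR-19b-3p (27 reads) and miR-20a-5p (8 reads) lie lowest. In Fb replicate 2 miR-92a-3p lies lowest.

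miR-92b-3p, on chromosome 3 (89227126 to 89227147, minus strand, GRCm38), has the miR-92 seed and differs from miR-92a-3p by U10C and G21C over the first 21 bases. It had 183, 173 and 206.3 CPM in the ESC libraries, against 1019, 52.7 and 204 CPM in Fb replicates 1 to 3. The log2 fold change was -0.52 (SE 0.82, edgeR adjusted p = 0.619). As with miR-92a-3p, Fb replicate 1 was the highest and Fb replicate 2 the lowest library. The estimated counts of both were fractional, and how reads that match both were divided is not given. The profiles of miR-92a-3p and miR-92b-3p may therefore not be independent. Of the 8 other miRNAs with one of the 4 seeds, 1 was abundant enough to test and was not called, and 3 had 0 reads in every library. miR-32-5p, with the miR-92 seed, had 10, 14 and 15 reads in ESC libraries and 1 read in all over the Fb libraries.

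Each hairpin can yield a second mature product from its opposite arm, and that arm was the larger one of the miR-106b hairpin. Of 11 opposite-arm rows 4 were tested (miR-17-3p, miR-18a-3p, miR-93-3p and miR-106b-3p), and edgeR called 0 of them (0 at an unadjusted p under 0.05, against 49.5% called of all miRNAs tested). The 2 arms of miR-106b are shown because miR-106b-3p, which is not among the 9 members, had more reads than miR-106b-5p in every library:
miR-106b-5p: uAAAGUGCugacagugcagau
miR-106b-3p: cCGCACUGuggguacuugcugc
Capitals mark bases 2 to 8, which differ between the arms. miR-106b-3p had 705, 699 and 457 CPM in the ESC libraries, against 306, 798 and 817 CPM in Fb replicates 1 to 3. It held 82.8%, 77.4% and 73.4% of the reads of both arms in ESC and 93.8%, 79.8% and 77.0% in Fb replicates 1 to 3, the first of these from 15 and 1 reads. The groups overlapped, and its log2 fold change was 0.27 (SE 0.47, edgeR adjusted p = 0.650).

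The other hairpins kept the member arm on top in ESC exosomes. miR-17-3p held 3.60% to 4.62% of the reads of its hairpin's arms in ESC and 3.28% to 12% in Fb libraries, and miR-93-3p held 1.29% to 2.07% and 0% to 4.14%. miR-18a was more even. Its 3p arm held 43.3%, 45.1% and 39.5% in ESC exosomes, and in Fb replicates 2 and 3, with 12.8 and 13 reads in both arms together, 60.9% and 76.9%. The exact Clopper-Pearson 95% intervals of those Fb shares (31.6 to 86.1 and 46.2 to 94.96) overlapped those of the ESC libraries.

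The miRNAs most like a cluster in profile over the 6 libraries had the smallest root mean square distance of centred log2 CPM. They were chosen among 161 non-member miRNAs with a mean of at least 100 CPM and reads in every library. For miR-17-92 they were let-7f-5p (distance 0.189), miR-744-5p (0.197) and miR-674-5p (0.240). For miR-106b-25 they were miR-130a-3p (0.140), miR-1839-5p (0.184) and miR-23b-3p (0.187). miR-130a-3p, for instance, averaged 1945 ± 91.97 CPM over the ESC and 2707 ± 598 CPM over the Fb libraries (SD, n = 3).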

How the data were processed

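Exosomes were pelleted from conditioned medium by ultracentrifugation and their RNA made into CleanTag small RNA libraries, per the labels' protocols. The submitters' processing notes name FastQC, cutadapt and GRCm38. The aligner, the counter, strand use and the handling of shared reads were not given in the sources used here. Estimated counts of reads per non-coding RNA, unscaled, were deposited by the authors, one table per library. These were rounded to whole numbers for the count models only.

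The 1964 mature miRNA rows were fitted with edgeR 4.0.16 (R 4.3.3), taking their total as library size, with TMM factors and the quasi-likelihood test (filterByExpr at min.count 10 and min.total.count 15, no covariate, Benjamini-Hochberg adjustment over all miRNAs tested, threshold 0.05). SE is the log2 fold change divided by the root of the F statistic. Two-sided exact permutation tests in scipy 1.17.1 compared shares and ratios. Alternatives were DESeq2 1.42.0, limma-trend (limma 3.58.1), other scalings, filters and sums, all RNAs in one fit, a replicate block and leaving out each library. The sources name no molecular identifiers, so intervals and floors cover counting error only. Mature sequences were found in RefSeq for the 9 members and their relatives, and positions of host genes in GENCODE M21.

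The members, lists and tests were chosen with earlier results of these data known. The miRNAs named were the 9 members, their opposite arms and seed relatives with at least 10 CPM in any library, hairpin and host rows, marker miRNAs, and the 3 miRNAs most like each cluster. Other relatives are named where few, after their values were seen. The comparison of base composition was added after the values were seen.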

Additional observations from a re-analysis of the deposited data

How the results depend on the processing

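Scaling moved the median log2 fold change of all miRNAs from -0.11 with TMM factors to -0.52 with library totals alone, -0.64 without the 3 most abundant miRNAs in the library size and 1.15 with all RNAs in one fit. The number of members with a positive log2 fold change was 7, 6, 4 and 9 in these fits, with 0 called in each. With no count filter 1 member (miR-92a-3p) and 1 seed family (miR-92) passed as higher in ESC exosomes, and 209 of 968 miRNAs were called. The same member and family passed without Fb replicate 1, so both counts ranged from 0 to 1 when one library was left out. The median log2 fold change of all miRNAs was 1.31 with no count filter and 0.20 without Fb replicate 1. No member passed as higher in Fb exosomes in any fit run. Of 325 miRNAs tested 161 were called. Without Fb replicate 3 it was 103 of 374, without ESC replicate 3 107 of 245 and without Fb replicate 1 213 of 380.

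Several group differences of shares and ratios (ESC minus Fb) changed sign. As percent of all assigned reads the difference was 0.118 for miR-106b-25 (-0.260 of miRNA reads) and 0.0279 for the miR-19 family (-0.0552 of miRNA reads). Without the 3 most abundant miRNAs in the total it was -0.0633 for the miR-17 family. Without miR-19b-3p and miR-92a-3p it was 0.00191 for the miR-19 and -0.219 for the miR-92 family. Against the median of the other products the log2 ratio of miR-92a-3p differed by -0.18. Leaving out one library gave ranges of -0.107 to 1.60 percentage points for miR-17-92, -0.0603 to 0.0580 for the miR-17, -0.164 to 0.0462 for the miR-19 and -0.465 to 1.43 for the miR-92 family. On the log2 scale they were -0.75 to 1.50 for miR-92a-3p to the other products, -0.27 to 0.0725 for miR-25-3p to the other products and -0.32 to 0.80 for the miR-92 to the miR-17 family. The cause was not tested. The replicate number was shared by ESC and Fb libraries, but same-numbered libraries did not deviate together (r -0.247 to -0.142 across 296 miRNAs in 3 pairs). With the number as a replicate block edgeR called 0 members, 0 seed families and 114 of the 325 miRNAs, and the log2 fold change of miR-92a-3p was 0.93. Fb depth limits miR-18a-5p and miR-106b-5p most, at 1 read each in Fb replicate 1.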

Other observations

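The long precursor of miR-17-92 left few reads in these small RNA libraries. Mir17hg, the host RNA, had 2.79, 5.83 and 2.66 reads in ESC and 3.32, 0.886 and 0.635 reads in Fb replicates 1 to 3, against 58739 to 59215 and 2654 to 3551 reads of the mature products. The hairpin rows of the members stayed at or under 4.41 reads in every library. The host and hairpin rows overlap, so a read can be shared between them.

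In every ESC library the members stood in one order, from miR-92a-3p through miR-25-3p, miR-93-5p, miR-19b-3p, miR-17-5p, miR-20a-5p, miR-19a-3p and miR-106b-5p to miR-18a-5p. In Fb replicates 2 and 3 miR-19b-3p stood above miR-93-5p (in replicate 3 at 2726 against 2518 CPM), and the rest kept that order. In Fb replicate 1 miR-19a-3p, with 10 reads, stood above miR-20a-5p, with 8, a difference within counting error.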
